A study of Mus musculus with 5 samples.

Results

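The H3K4me1 map of EpiSC9 cells held 76362 peaks on the 19 autosomes, all autosomal rows of the authors' peak list for this mark. They were chosen by chromosome alone, out of 76772 rows in that list and 156288 in the 4 peak lists of the series. EpiSC9 is a line of mouse epiblast stem cells, which represent the primed state of pluripotency. The labels give no strain, genotype or sex. The culture medium held 10 ng/ml of FGF2 and the cells grew on a feeder layer of irradiated mouse embryonic fibroblasts, and 5000000 crosslinked cells went into each chromatin immunoprecipitation before sequencing. H3K4me3, H3K27ac and H3K27me3 were mapped in the same line, with 1 library per mark and no replicate, so all values below describe 1 library of 1 line and carry no test. How many reads lie behind the list is unknown. Intervals given with shares are 95% Wilson intervals and reflect only the number of peaks, gaps or bins counted.

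H3K4me1 is the monomethylated form of lysine 4 on histone H3. It is laid down mainly by the MLL3 and MLL4 methyltransferases, and it is best known as the mark of enhancers, whether active or held ready. At active promoters it typically lies on both sides of the start site, where the trimethylated form H3K4me3 takes its place. In pluripotent cells it has been used to list candidate enhancers, with H3K27ac separating those in use from the rest.

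The peaks were mostly short islands with a thin tail of long domains. They covered 145.1 Mb, which was 6.04% of the length from the first to the last peak of the autosomes. Widths ran from 489 bp to 21.8 kb, with a median of 1543 bp and an interquartile range of 1157 to 2211 bp. The narrow side was sharply bounded, since the 1st percentile was 784 bp. On the wide side the 90th percentile was 3211 bp and the 99th was 6.60 kb. Peaks of 5 kb or more numbered 2041 (2.67%, 95% interval 2.56 to 2.79) and held 9.50% of the covered length. Only 137 peaks (0.179%, 0.152 to 0.212) reached 10 kb, 27 reached 15 kb and 5 reached 20 kb. The widest 1% of peaks held 4.55% of the covered length and the widest 10% held 24.5%, so the covered length lay mainly in peaks of ordinary size.

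**Figure D1:**
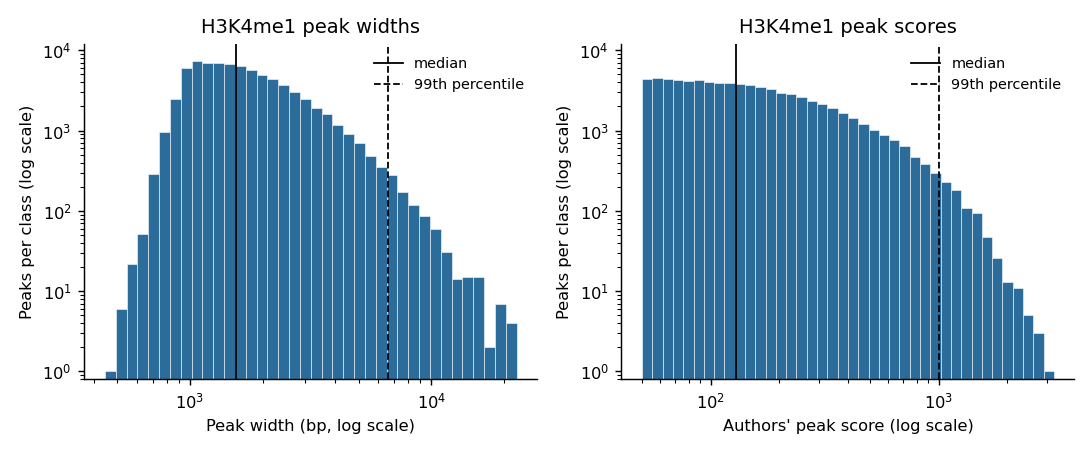
Histograms of width (left, bp) and of the authors' score (right) over the 76362 autosomal H3K4me1 peaks, with log scales on both axes and lines at the median and the 99th percentile. Widths are most frequent between 1 and 2 kb, fall steeply on the narrow side and tail off to 21.8 kb. Scores are most frequent just above the lowest value of 50 and reach 3035.49 in 1 peak.

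The 5 widest peaks were spread over 5 chromosomes and differed widely in strength. The widest, at chr9:57645905-57667673 of mm9, spanned 21.8 kb and scored 253.35, which ranked 16861 by score. The next, at chr18:35991569-36012228, spanned 20.7 kb and scored 1105.25. A peak of 20.5 kb at chr10:60828114-60848643 scored 830.73, and one of 20.4 kb at chr4:132595657-132616087 scored 925.1. The fifth, at chr7:119824040-119844198, spanned 20.2 kb and scored 332.92. Each of the 5 had another H3K4me1 peak within 5 kb on at least 1 side, and the chr9 and chr18 peaks were followed by a neighbour after 266 and 309 bp. The edges of such domains therefore depend on where the list breaks them. When peaks less than 1 kb apart were joined, none of these 5 overlapped the 5 widest joined intervals. The widest interval then lay at chr15:77626463-77671571, where 7 peaks with short breaks covered 96.4% of 45.1 kb.

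The score of a peak is the authors' own value and was used only to describe and rank peaks within this list. Scores had a long upper tail. The lowest was 50, the median 128.65 and the interquartile range 78.82 to 232.93. Peaks scoring under 60 made up 10.2% of the list (7824, 95% interval 10.0 to 10.5). Scores of 500 or more were found for 5025 peaks (6.58%, 6.41 to 6.76), and 771 peaks (1.01%, 0.941 to 1.08) reached 1000. Beyond that the numbers fell quickly, to 26 peaks at 2000 or more and 5 at 2500 or more.

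The 5 highest-scoring peaks were broad but not the broadest. The peak at chr4:137028416-137039104 scored 3035.49 and was 10.7 kb wide, which ranked 97 by width. Those at chr11:97295384-97305091 (score 2805.93, 9.71 kb) and chr5:140267682-140275618 (2712.35, 7.94 kb) came next. The last 2 lay on chromosome 2, at chr2:30571033-30579687 (2656.68, 8.66 kb) and chr2:30295555-30302632 (2515, 7.08 kb). The first 4 had an H3K4me1 neighbour within 1.31 kb, whereas the fifth stood 20.3 kb and 15.6 kb from its neighbours.

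Width and score rose together over most of the list but parted among the longest peaks. Spearman's rho between them was 0.874 over all 76362 peaks and 0.864 over peaks under 5 kb, but 0.312 over the 2041 peaks of 5 kb or more. A cut by width also narrows the range, which lowers rho. All peaks share 1 library, so these values are a description. The median score was 59.87 for peaks under 1 kb, 148.83 at 1.5 to 2 kb, 448.66 at 3 to 5 kb and 1089.05 at 7.5 to 10 kb. It was lower again in the longest classes, at 1007.2 for 110 peaks of 10 to 15 kb and 686.1 for 27 peaks of 15 kb or more. The widest 1% and the strongest 1%, 764 peaks each, shared 391 peaks (51.2%, 47.6 to 54.7). Among the strongest 1% no peak was narrower than 3173 bp, but among the widest 1% scores went down to 54.74.

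**Figure D2:**
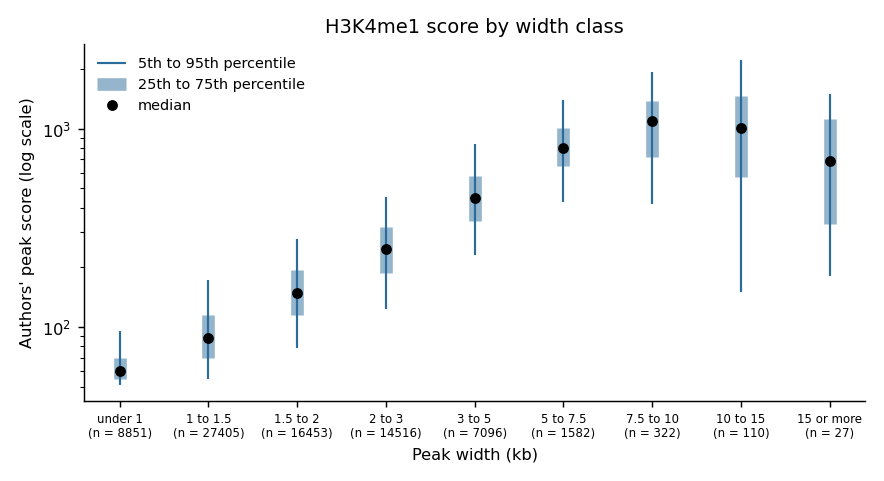
Authors' score (log scale) of H3K4me1 peaks in 9 classes of width (kb), with the number of peaks per class; dots are medians, thick bars span the 25th to 75th percentile and thin lines the 5th to 95th. The median climbs from 59.87 under 1 kb to 1089.05 at 7.5 to 10 kb and stands at 686.1 in the class of 15 kb or more.

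Some of the widest peaks had low scores, a set described here after its values were seen. Of the 137 peaks of 10 kb or more, 37 scored under 500. The lowest score, 54.74, belonged to a peak of 15.3 kb at chr2:28372044-28387301, near the minimum of the whole list. Next came 14.5 kb at chr8:111239090-111253539 (score 56) and 12.2 kb at chr11:53583809-53595994 (61.56). H3K27ac, a mark of active enhancers and promoters, overlapped 35 of the 37 low-scoring wide peaks (94.6%, 82.3 to 98.5) and 87 of the 100 others (87%, 79.0 to 92.2), against 30.9% of all H3K4me1 peaks, most of which are far narrower. It covered a median of 44.9% of the width of the former and 40.8% of the latter. H3K4me3 overlapped 27 of the 37 (73.0%, 57.02 to 84.6) and 61 of the 100 (61%, 51.2 to 70.0), against 31.4% of all peaks.

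Neighbouring peaks were separated by gaps of very unequal length. The 76343 gaps, counted as bases between the end of a peak and the start of the next, had a median of 6.33 kb and a mean of 29.6 kb, a ratio of 4.67. The interquartile range was 1.49 to 20.6 kb. No peaks overlapped or touched, and the smallest gap was 1 bp. Gaps under 1 kb made up 20.1% (19.8 to 20.4), those under 5 kb 45.0% (44.7 to 45.4) and those under 10 kb 59.9%. At the other end, 3740 gaps (4.90%, 4.75 to 5.05) reached 100 kb, yet they held 56.9% of all uncovered length. The longest 1% of gaps alone, 764 in number, held 34.2% of it.

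**Figure D3:**
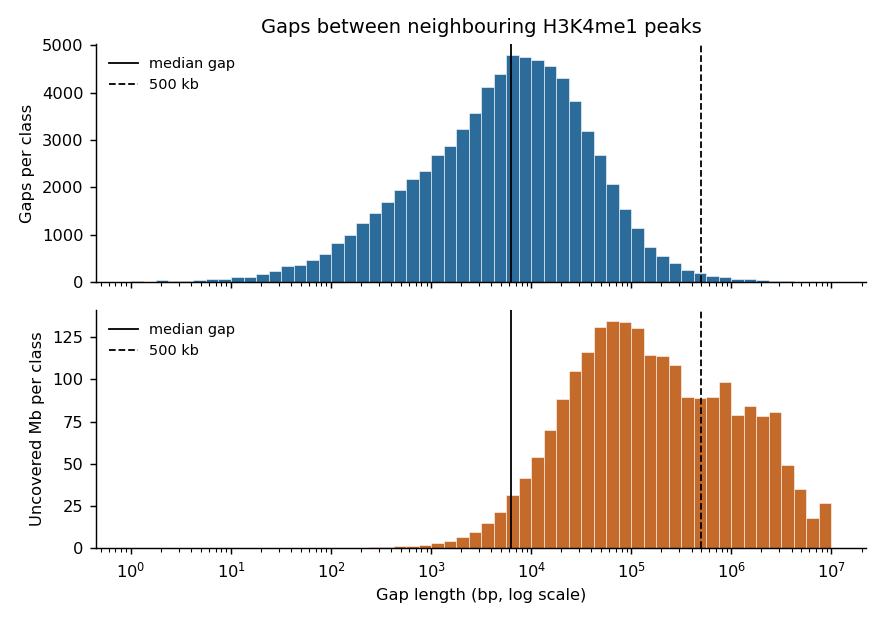
Gaps between neighbouring H3K4me1 peaks by length (bp, log scale), as the number of gaps per class (top) and the uncovered Mb they hold (bottom), with lines at the median gap and at 500 kb. Gaps are most frequent around the median of 6.33 kb, whereas most uncovered length lies in gaps of 100 kb or more.

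Crowded peaks were wider and stronger than lone ones. The 18569 peaks with a neighbour within 500 bp were 1601 bp wide at the median with a median score of 147.8, and 4.27% were 5 kb or wider. With the nearest neighbour at 5 to 20 kb the medians were 1486 bp and 116.73, and 1.26% reached 5 kb. For the 1062 peaks with no neighbour within 100 kb they were 1246 bp and 86.67, and 0 peaks reached 5 kb. The quartiles overlapped broadly, since the widths of the middle 50% ran from 1187 to 2388 bp in the first class and from 1013 to 1643 bp in the last. Among 1054 peaks with at least 100 kb free on both sides, the widest was 4636 bp and the highest score was 784.03. Next-door peaks nevertheless resembled each other little, with a Spearman's rho of 0.0801 for width and 0.0828 for score over 76343 neighbours. Consecutive gaps were somewhat more alike, at 0.181 over 76324 pairs.

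Joining peaks within 12500 bp, a distance in common use for grouping enhancers, turned the list into 26983 clusters. A single peak made up 12658 of them (46.9%). At the other end, 1202 clusters of 10 or more peaks held 24.3% of the peaks and 29.1% of the covered length. The 270 clusters with the largest covered length, the top 1%, held 11.8% of it. Covered length per cluster went from 43.7 to 195.1 kb (median 56.8 kb), and they contained 8 to 63 peaks with a median of 23. Their spans were far from filled, since peaks took up a median of 47.0% of a span, with a range of 29.4% to 87.4%. The 6621 peaks inside these clusters were 1970 bp wide at the median and scored 190.75, whereas peaks alone in their cluster had medians of 1368 bp and 101.945. Covered length ranked the clusters, so their wider peaks follow in part from the ranking.

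The largest cluster lay at chr8:122776320-123114433, where 57 peaks covered 195.1 kb of 338.1 kb. The median width of its peaks was 2927 bp and their top score 1560.24. At chr2:30441892-30732581, 54 peaks covered 132.0 kb, among them the peak with the fourth highest score of the list. The third, at chr5:120787447-121186099, was the longest and loosest, with 63 peaks over 130.7 kb of a span of 398.7 kb and a top score of 857.29. At chr9:107409739-107639495, 41 peaks covered 130.5 kb, and at chr4:132476453-132689358, 35 peaks covered 128.8 kb, including the fourth widest peak of the list. The identity of these clusters depended on the joining distance and on weak peaks. When only peaks in the upper 50% of scores were kept, 2 of the 5 overlapped one of the 5 largest, and the largest covered 121.8 kb. Of the 5, 2 overlapped one of the 5 largest with joining within 5 kb and 0 did so with joining within 25 kb. At 25 kb the largest cluster lay at chr10:79070443-80091091, with 188 peaks over 441.7 kb.

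Covered length was concentrated in a minority of the genome. Over 2420 bins of 1 Mb, from the bin of the first to that of the last peak of each autosome, the median bin had 37.9 kb covered and the mean 59.98 kb. The densest 10%, 242 bins with at least 151.0 kb each, held 34.2% of the covered length. The densest 50% held 89.7%, which left 10.3% for the other 1210 bins. It took 415 bins (17.1%) to reach 50% of the covered length. The Gini coefficient, which is 0 for equal bins and approaches 1 when 1 bin holds everything, was 0.557. Bins without any covered base numbered 240 (9.92%, 8.79 to 11.2), and 114 bins (4.71%, 3.94 to 5.63) were covered to 20% or more.

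**Figure D4:**
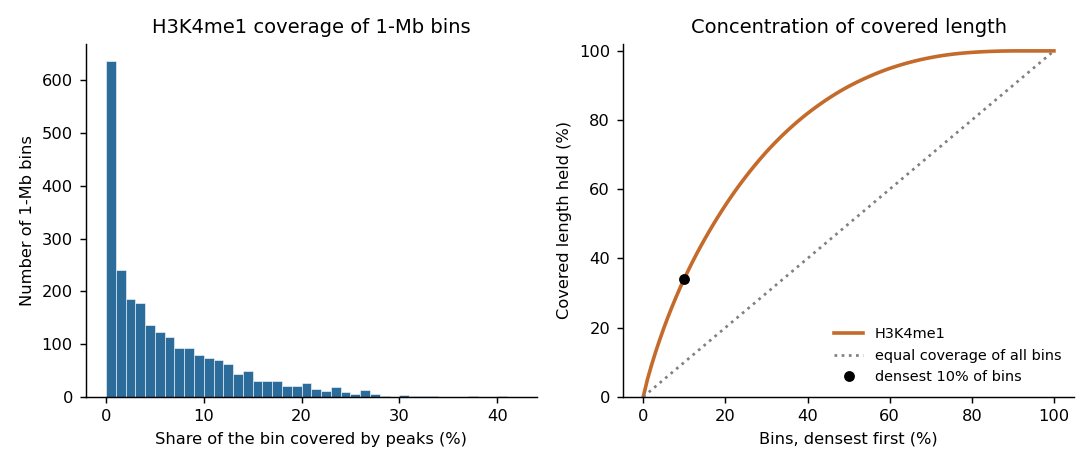
Left, number of 1-Mb bins by the percentage of the bin covered by H3K4me1 peaks. Right, percentage of all covered length held by bins ranked from densest to sparsest, with the line of equal coverage for comparison; the densest 10% of bins hold 34.2% and the densest 50% hold 89.7%.

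The number of peaks changed more between dense and sparse bins than their size did. Bins were sorted into deciles by covered length. Those of the densest decile held a median of 92 peaks and those of the fifth decile 28, a ratio of 3.29, while mean width was 2162 bp against 1676 bp, a ratio of 1.29. Median width declined step by step from 1724 bp in the densest decile through 1418 bp in the fifth to 1179 bp in the ninth. Median score went from 159.64 through 109.99 to 82.775 in the same deciles. Since bins were ranked by covered length, both number and width enter the ranking. Dense bins also lay together: Spearman's rho between adjacent bins was 0.607 over 2401 pairs, and it was 0.401 at 2 Mb, 0.142 at 5 Mb and 0.0631 at 10 Mb. Of the 242 densest bins, 174 stood in runs of 2 or more. The longest run was 10 Mb, at chr4:132000001-142000000, where 1058 peaks covered 23.4% of the sequence. It contained both the strongest peak of the list and the fourth widest.

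The 2 densest bins were neighbours on chromosome 10. At chr10:79000001-80000000, 173 peaks covered 406.6 kb, which was 10.7 times the median bin, and at chr10:80000001-81000000, 152 peaks covered 379.2 kb. The bin at chr11:117000001-118000000 followed with 138 peaks over 377.4 kb. At chr8:122000001-123000000 there were 137 peaks over 335.6 kb, part of them in the largest cluster. The fifth, at chr7:52000001-53000000, held 145 peaks over 321.6 kb. Median peak widths in the 5 bins lay between 1879 and 2021.5 bp, and median gaps between 1.46 and 2.32 kb. These bins held many closely spaced peaks, wider than the list median of 1543 bp, and the chr7 bin held no peak wider than 6.11 kb. All 5 bins remained the densest 5 when only peaks in the upper 50% of scores were kept and after joining peaks less than 1 kb apart.

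Peak-free stretches of 500 kb or more numbered 535 and added up to 674.2 Mb, or 28.1% of the length between first and last peaks. Their median length was 874.7 kb, 219 reached 1 Mb, 79 reached 2 Mb and 11 reached 5 Mb. Chromosome 14 held 3 of the 5 longest. These were chr14:87981399-97943231 (9.96 Mb), chr14:106326469-115347317 (9.02 Mb) and chr14:80571707-86638210 (6.07 Mb). The others were chr7:39056038-46705086 (7.65 Mb) and chr1:145854288-151946355 (6.09 Mb). The first H3K4me1 peak of chromosome 14 also came late, at 8623425, whereas the first peaks of the other autosomes began between 3022282 and 3742573. Assembly gaps and sequence to which short reads cannot be placed would also leave no peaks, and their part in these stretches was not tested.

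Peaks at the borders of these stretches were small. The 974 bordering peaks were 1264 bp wide at the median (interquartile range 1022 to 1692) and scored 89.85, compared with 1547 bp and 129.35 for all other peaks. Small size was not particular to these borders, since peaks with no neighbour within 100 kb had medians of 1246 bp and 86.67. Only 1 of the 974 (0.103%, 0.0181 to 0.579) was 5 kb or wider, against 2040 of 75388 others (2.71%, 2.59 to 2.82). Scores of 500 or more were found in 13 of them (1.33%, 0.782 to 2.27), against 6.65% of the others. In 96 cases a peak stood alone between 2 such stretches, and such peaks had a median width of 1161.5 bp, with scores up to 337.84. When only peaks in the upper 50% of scores were kept, 702 stretches of 500 kb or more were counted, and 3 of the 5 longest overlapped one of the 5 longest of that set.

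Autosomes differed in the number of peaks far more than in their size. Peaks per Mb ranged from 22.5 on chromosome 3 to 51.5 on chromosome 11, a ratio of 2.29, and the median autosome had 32.8. Median width ranged only from 1476 bp on chromosome 14 to 1638 bp on chromosome 11, a ratio of 1.11. Within that narrow range it rose with peaks per Mb, at a Spearman's rho of 0.812 over the 19 autosomes. Median score went from 115.855 on chromosome 18 to 144.23 on chromosome 11. The covered share was 10.5% on chromosome 11 and 4.12% on chromosome 3. Chromosome 19 followed chromosome 11 at 7.92%. Chromosome 11 also had the shortest median gap, 4.51 kb, and 32 of its 119 bins were among the densest 10%, against 4 of 118 on chromosome 14. Stretches of 500 kb or more took up 10.8% of chromosome 11 and 36.7% of chromosome 3. Chromosome 14 came close at 35.4%. All these shares are of the length from first to last peak, which leaves out the sequence before the first peak of chromosome 14 at 8623425. Without chromosome 11, the densest 10% of bins held 34.4% of the covered length, so the concentration did not rest on that chromosome.

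**Figure D5:**
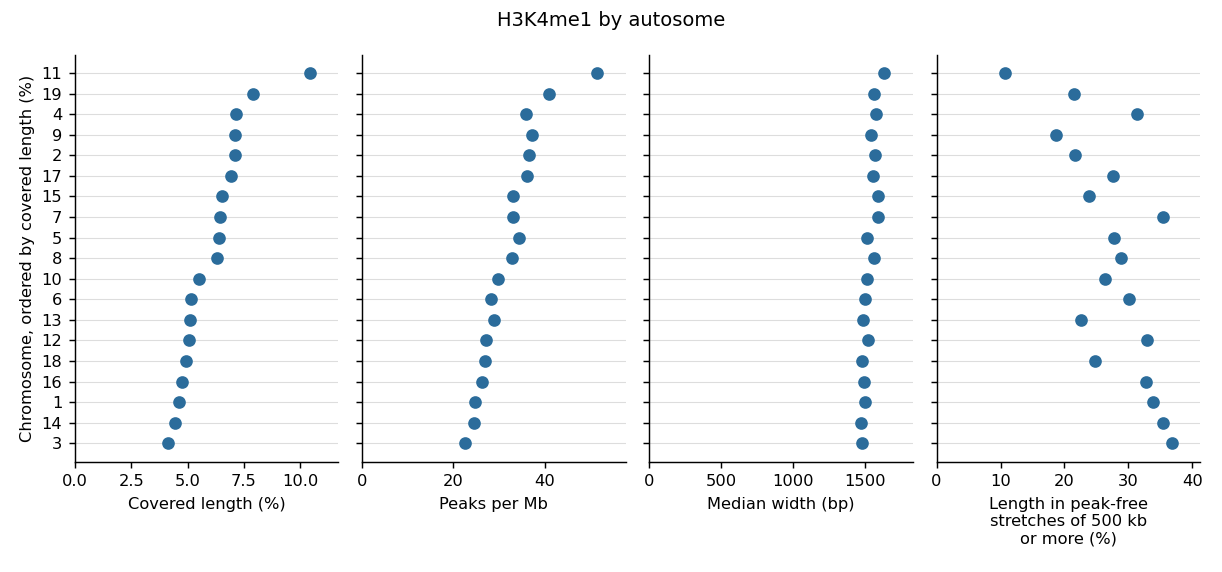
The 19 autosomes, ordered by the percentage of their length covered by H3K4me1 peaks, with peaks per Mb, median peak width (bp) and the percentage of length in peak-free stretches of 500 kb or more. Length runs from the first to the last peak, each dot is 1 chromosome and all axes start at 0. Coverage follows the number of peaks, from 22.5 to 51.5 per Mb. Median width stays between 1476 and 1638 bp and tends to be larger where peaks per Mb are higher.

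The tails were spread over all autosomes. Every autosome held at least 1 peak of 10 kb or more. Chromosome 4 held 21 of the 137 (15.3%) with 7.16% of all peaks, chromosome 2 held 15 (10.9%) with 8.54%, and chromosome 16 held 1 with 3.26%. Of the 771 peaks scoring 1000 or more, chromosome 11 held 106 (13.7%) with 8.003% of all peaks and chromosome 4 held 80 (10.4%). Chromosome 2, with the most peaks of any autosome, held 73 (9.47%, with 8.54% of all peaks). Chromosome 13 had the fewest, 14 (1.82%, with 4.42% of all peaks), and the lowest 99th percentile of score, 741 against 1161.38 on chromosome 11.

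The other lists place these features against promoter and Polycomb marks, with overlap counted from 1 bp and wider intervals meeting more peaks of any kind. Of all 76362 H3K4me1 peaks, 30.9% overlapped H3K27ac, 31.4% H3K4me3, the promoter mark, and 6.13% H3K27me3, the mark of Polycomb silencing. Among the 771 peaks scoring 1000 or more, which are also wide, these shares were 82.7% (79.9 to 85.3), 60.8% (57.3 to 64.2) and 11.8% (9.71 to 14.3) in the same order. Among the 7824 scoring under 60 they were 13.0%, 13.0% and 2.49%, so a larger share of the strong, wider peaks met each of the 3 marks. Peaks of 10 kb or more gave 89.1%, 64.2% and 13.9%. Counted as overlaps per Mb of H3K4me1 peak, those scoring 1000 or more had 250.8 with H3K27ac, 162.9 with H3K4me3 and 40.8 with H3K27me3 peaks. Those under 60 had 136.4, 138.9 and 29.7, whereas the whole list had 199.1, 196.9 and 51.6. A peak of another mark that reaches several H3K4me1 peaks was counted once for each. The 28574 overlaps with H3K4me3 therefore exceed its 27970 autosomal peaks. An overlap at the edge of an H3K4me1 peak counts in full, which raises these rates for narrow peaks. The H3K27ac rate was nevertheless higher on the strong, wider peaks than over the whole list. For H3K4me3 and H3K27me3 the rates were lower on the strong peaks, which cannot be told apart from this effect of width. All 5 of the widest and all 5 of the strongest peaks overlapped H3K27ac, 4 and 5 of them overlapped H3K4me3, and 0 overlapped H3K27me3, a number too small to set against 6.13%. H3K4me3 overlapped a larger share of gaps under 1 kb than of gaps of 1 to 5 kb. In longer gaps the share rose again, from 6.39% at 5 to 10 kb to 11.7% at 20 to 50 kb. The share of gaps that an H3K4me3 peak overlapped was 30.3% (28.6 to 32.1) under 100 bp, 38.0% (36.9 to 39.1) at 100 to 500 bp and 34.3% (33.0 to 35.5) at 500 bp to 1 kb. It was 16.2% (15.3 to 17.0) at 1 to 2 kb and 6.48% (6.06 to 6.93) at 2 to 5 kb. Gaps under 500 bp are shorter than the median H3K4me3 peak of 987.5 bp, as is the median gap of 719 bp in the class of 500 bp to 1 kb. An overlap in these classes does not place that peak inside the gap. The same holds for H3K27ac, with a median peak of 819 bp. For H3K27ac the shares in the 5 classes up to 5 kb were 20.9%, 30.1%, 32.6%, 18.6% and 9.91%. For H3K27me3 they lay between 4.68% and 6.00%. H3K4me1 stretches of 500 kb or more were not empty of other marks. H3K27ac peaks lay in 358 of the 535, 885 in all or 1.31 per Mb, against 13.7 per Mb over the autosomes. H3K27me3 peaks lay in 199, 410 in all or 0.608 per Mb, against 4.75. H3K4me3 peaks lay in 256, 760 in all or 1.13 per Mb, against 11.6. These H3K4me3 peaks were mostly narrow and weak, at medians of 307 bp and a score of 73.27, compared with 987.5 bp and 909.615 for all autosomal H3K4me3 peaks. The 5 longest held 99 H3K4me3 peaks (median width 255 bp, median score 55.87, highest score 3100), 9 H3K27ac peaks and 11 H3K27me3 peaks.

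Set beside the other lists on autosomes, H3K4me1 had the most peaks and the largest median width, although list length and unknown depth differ between marks and no difference was tested. Median widths were 1543 bp for H3K4me1, 987.5 bp for H3K4me3, 819 bp for H3K27ac and 477 bp for H3K27me3. The densest 10% of bins held 34.2%, 37.1%, 35.9% and 62.4% of the covered length in the same order. Stretches of 500 kb or more without a peak numbered 535 for H3K4me1, 973 for H3K4me3, 902 for H3K27ac and 1397 for H3K27me3. The median gap was 6.33 kb for H3K4me1, 17.5 kb for H3K4me3, 12.8 kb for H3K27ac and 1.196 kb for H3K27me3. Gaps under 1 kb made up 20.1%, 26.3%, 27.5% and 47.9% in the same order, whereas gaps under 5 kb made up 45.0%, 35.1%, 38.3% and 59.3%.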

How the data were processed

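Peaks of H3K4me1 on chr1 to chr19 were read from the list that the authors deposited for this library, which gives an interval and a score for each peak. Coordinates are 1-based positions of mm9, the build named in the submitters' processing notes, which also name Bowtie 0.12.9, MACS 1.4 and Cufflinks with no role or order. Not given in the sources used here are the scale of the score, the control, how duplicate reads were handled and the threshold for calling. The input library was not used here. The read depth is unknown, and its effect on number and width of peaks was not tested.

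Gaps, clusters, bins and overlaps were computed in Python 3.11.15 (numpy 2.4.6, pandas 2.3.3, scipy 1.17.1), with matplotlib 3.10.9 for plots, by functions tested on simulated data. Regions described by position are the 5 widest and 5 highest-scoring peaks, the 5 bins and 5 clusters with the largest covered length, the 5 longest stretches and the autosomes with the highest and lowest covered share. These rules and the choice of the mark were made with earlier results of these data known. Wide peaks of low score, the contents of gaps and stretches and the largest joined intervals were described after their values were seen. The gene tables at hand are of another build, so no gene was assigned, no sequence is shown, and marker genes of stem and feeder cells were not checked.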

Additional observations from a re-analysis of the deposited data

How the results depend on the processing

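The list as deposited, on autosomes, gave the values above. With peaks less than 1 kb apart joined, the median width was 1754 bp, the share of intervals of 5 kb or more was 8.74%, the median gap was 10058 bp and 31.2% of gaps were under 5 kb. The densest 10% of bins then held 34.4% of the covered length and the top 1% of clusters 11.9%. With only the upper 50% of scores kept, 38183 peaks had a median width of 2189 bp, 5.33% were 5 kb or wider, the median gap was 12014.5 bp and 32.7% of gaps were under 5 kb. There the densest 10% of bins held 38.8% and the top 1% of clusters 9.30%. Among peaks at or above the median width, 13.1% scored 500 or more. With all chromosomes, the densest 10% of bins held 35.8% and the top 1% of clusters 11.8%. That share of the densest bins was 37.3% with bins of 500 kb, 32.3% with bins of 2 Mb, 34.5% with bins offset by 500 kb and 34.9% with bins from position 1. Stretches numbered 1220 at 250 kb or more and 219 at 1 Mb or more. The top 1% of clusters held 8.64% with joining within 5 kb and 15.0% within 25 kb. Without chromosome 11, chosen after seeing the data, the median width was 1535 bp, 6.37% scored 500 or more, the median gap was 6536 bp, 44.4% of gaps were under 5 kb, the densest 10% of bins held 34.4% and the top 1% of clusters 11.8%. A score filter or joining changes which peaks are counted, so widths and gaps move by construction. Of these summary values, the other 13 stayed within their interval or within 1.5 times the count. For the shares of bins and clusters, the extremes and the Gini coefficient, any difference at all counted as a move. A Gini coefficient of 0.558 with bins offset by 500 kb, against 0.557, was thus counted. Of 33 values for extremes, the Gini coefficient and the median score, 22 moved: the largest cluster covered 121.8 kb with the score filter, 84.3 kb with joining within 5 kb and 441.7 kb within 25 kb, the widest interval was 45.1 kb after joining, the longest stretch was 23.9 Mb with all chromosomes, and the median score was 230.2 among the wider 50% of peaks. The unknown depth limits every count of weak or narrow peaks and the ends of peak-free stretches. No paired analysis was possible because each mark has 1 library.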
